A study of Mus musculus with 13 samples.

Results

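The genes described here are 9 naive T cell factors and homing receptors, read from bulk RNA-seq of mouse CD4+ T cells. They are the transcription factors Tcf7, Lef1, Satb1, Bach2, Klf2 and Klf3, the receptors Ccr7 and S1pr1, and the secreted protein gene Igfbp4. They were chosen by name from the 55774 gene entries of the deposited count table, and all 9 were found and passed the filter on low counts. The T cells were naive CD4+ cells from the spleens of female mice labelled NOD/ShiLtJ that carry the BDC2.5 transgenes TcraBDC2.5 and TcrbBDC2.5, which give most T cells a receptor for a beta-cell antigen. They were profiled in 3 groups, with 5 libraries after 96 hours of co-culture with macrophages from the islets of NOD mice given a single low dose of streptozotocin (STZ), 4 after co-culture with islet macrophages of NOD mice given control buffer, and 4 of T cells alone. Injection was at 4 weeks of age in the macrophage donors, and islets were taken 10 days later, at 5.5 weeks. STZ is a toxin that enters beta cells through a glucose transporter, so the first comparison asks how macrophages from islets exposed to it act on T cells. All T cells of the 3 groups carry the same transgenes, and their own age is not given in the labels. The macrophages were enriched with magnetic beads rather than sorted, and no label tells if the cells alone had been in culture.

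As background, a naive T cell circulates between blood and lymph node in a resting state that is kept by a set of transcription factors, and it leaves this state when its receptor meets antigen. TCF1 (the product of Tcf7) and LEF1 bind related DNA motifs and are needed for T cell development and for long-lived, self-renewing T cells. KLF2 drives the genes for the receptors that hold naive cells in circulation, among them S1pr1. CCR7 guides cells into lymph nodes along its chemokine ligands, and S1PR1 guides them out along sphingosine 1-phosphate. Antigen receptor signalling is known to lower Klf2, S1pr1 and Tcf7 transcripts in T cells.

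Windows of 250 bases that end just before an annotated transcript start (RefSeq, GRCm38.p6) were available for 7 of the 9 genes, 15 windows in all, some of which overlap. A motif that Krüppel-like factors bind, CCNCACCC on either strand, was in 8 of the 15 windows, against 14.9% of 32851 windows of all genes, and the core motif of TCF and LEF factors, CTTTGA on either strand, was in 2 of 15, against 13.8%. Of the 8, 2 are overlapping Lef1 windows that hold the same site, and windows of the same gene are not independent. The forkhead motif GTAAACA was in 0 of 15, against 3.17%. Some windows are printed here because several of these genes encode factors of the families that bind such motifs. The 4 windows hold no exonic base of their own gene, and capitals mark the motif on the strand of the gene. The first Lef1 window and the Igfbp4 window hold the Krüppel-like motif, and the second Lef1 window and the Bach2 window hold the TCF and LEF core, read there from the opposite strand as TCAAAG. A match describes letters and is no evidence of binding.
Lef1, chr3:131110047-131110296, plus strand: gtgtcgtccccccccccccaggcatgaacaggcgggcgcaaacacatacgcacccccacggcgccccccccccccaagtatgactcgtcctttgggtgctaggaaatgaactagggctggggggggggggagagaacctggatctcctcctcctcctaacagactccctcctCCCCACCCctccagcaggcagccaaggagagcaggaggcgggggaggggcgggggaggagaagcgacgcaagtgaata
Lef1, a start inside the gene, chr3:131156044-131156293, plus strand: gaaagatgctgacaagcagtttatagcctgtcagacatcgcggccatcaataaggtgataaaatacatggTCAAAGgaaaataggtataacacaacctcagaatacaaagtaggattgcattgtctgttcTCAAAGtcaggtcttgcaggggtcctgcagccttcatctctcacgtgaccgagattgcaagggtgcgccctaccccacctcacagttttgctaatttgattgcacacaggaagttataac
Igfbp4, chr11:99040994-99041243, plus strand: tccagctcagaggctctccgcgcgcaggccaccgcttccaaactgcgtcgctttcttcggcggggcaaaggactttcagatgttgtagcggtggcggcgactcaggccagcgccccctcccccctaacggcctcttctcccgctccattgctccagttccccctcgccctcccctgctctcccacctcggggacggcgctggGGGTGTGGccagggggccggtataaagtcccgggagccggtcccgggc
Bach2, a start inside the gene, chr4:32417185-32417434, plus strand: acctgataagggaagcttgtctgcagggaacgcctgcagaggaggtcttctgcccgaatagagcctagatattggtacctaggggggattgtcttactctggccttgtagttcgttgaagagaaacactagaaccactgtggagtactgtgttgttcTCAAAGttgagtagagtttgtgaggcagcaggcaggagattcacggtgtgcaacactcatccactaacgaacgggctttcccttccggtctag

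The libraries held 33.4 to 58.8 M counts in the STZ-macrophage co-culture, 30.6 to 61.3 M in the control-macrophage co-culture and 17.3 to 39.8 M in the cells alone. Levels are given as CPM, counts divided by the library size in M, where the library size is the total times its TMM factor. The labels give 2 batches, day 1 and day 2. STZ-macrophage replicates 1 and 5, control-macrophage replicates 1, 2 and 4 and all cells alone are of day 1, so day 2 has 3 STZ-macrophage libraries and 1 control-macrophage library. The labels call the libraries biological replicates without naming animals or cultures, so p-values measure the spread between these libraries. All 12 T cell markers were detected in every group, and their sum was 10279 to 14478 CPM in the STZ-macrophage co-culture, 14193 to 23596 CPM in the control-macrophage co-culture and 8991 to 18084 CPM in the cells alone. The highest of these sums belongs to control-macrophage replicate 3. STZ-macrophage replicates 2 and 4 held 164 and 143 CPM of islet endocrine markers in sum, and every other library at most 3.33 CPM. Of these 10 markers, 1 (Ppy) was at 0 throughout the STZ-macrophage co-culture, and 2 (Sst and Ppy) throughout the control-macrophage co-culture. Endothelial and stromal markers summed to 3.09 to 45.0 CPM with STZ macrophages and 1.36 to 2.19 CPM with control macrophages, and the endothelial marker Cdh5 was at 0 in all libraries of both. Dendritic cell markers summed to 5.13 to 17.95 CPM with STZ macrophages, 1.03 to 3.02 CPM with control macrophages and 1.44 to 9.38 CPM in the cells alone, with Clec9a and Cd209a at 0 in every library. Of the 2 that were tested, Batf3 was at 9.49 CPM with STZ macrophages and 1.09 CPM with control macrophages on average, while Zbtb46 was at 0.837 and 0.899 CPM in these groups. Macrophage markers summed to 195 to 380 CPM with STZ macrophages, 277 to 587 CPM with control macrophages and 137 to 333 CPM in the cells alone, and most of each sum was Ctss. The other 17 macrophage markers summed to 24.4 to 118 CPM with STZ macrophages, 8.21 to 61.4 CPM with control macrophages and 3.54 to 13.3 CPM in the cells alone, a split made after seeing the data. Of 15 macrophage markers tested between the co-cultures, 12 had a positive log2 fold change, with a median of 1.35 and none called by edgeR (4 at an unadjusted p below 0.05; DESeq2 called C1qc and Csf1r as higher). The part of these markers in the results was not tested. In bulk samples such as these, fewer cells of a type and less RNA per cell cannot be told apart.

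Transcripts of 7 of the 9 genes were lower in the STZ-macrophage co-culture than in the cells alone, 8 were lower in the control-macrophage co-culture than in the cells alone, and 1, Igfbp4, was higher there. Between the co-cultures only Tcf7 passed the test, lower with STZ macrophages, while 8 of the 9 genes had an unadjusted p below 0.05 (7 lower, and Satb1 higher), as did 22.8% of all genes tested. Tests are edgeR quasi-likelihood tests over 15781 genes with the batch as a term, and a gene was called at a Benjamini-Hochberg adjusted p below 0.05. Of all genes tested, 43.1% were called in the STZ-macrophage co-culture against the cells alone, 22.3% lower and 20.8% higher. In the control-macrophage co-culture against the cells alone it was 45% of genes, 22% lower and 23.1% higher. Between the STZ-macrophage and control-macrophage co-cultures it was 0.323%, 0.171% lower and 0.152% higher. Without STZ-macrophage replicates 2 and 4, an alternative chosen after seeing the data, 6 of the 9 genes were lower in each co-culture than in the cells alone (the call of Bach2 was lost with both kinds of macrophage and that of Ccr7 with control macrophages), and none was called between the co-cultures (edgeR, 1820 genes at an unadjusted p below 0.05). Both comparisons with the cells alone use the same 4 libraries. The median log2 fold change of the 9 genes was -0.63 between the co-cultures, against -0.13 for all genes tested. It was -1.98 for STZ macrophages against the cells alone (all genes -0.05) and -1.44 for control macrophages against the cells alone (all genes -0.13). Scaling moved the median of all genes between the co-cultures, to -0.03 with RLE and 0.07 with library totals. Relative to that median, the median of the 9 genes was -0.50 under all 3 scalings. Scaling shifts all genes by nearly the same amount, so this agreement follows from the subtraction and is no check.

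**Figure D1:**
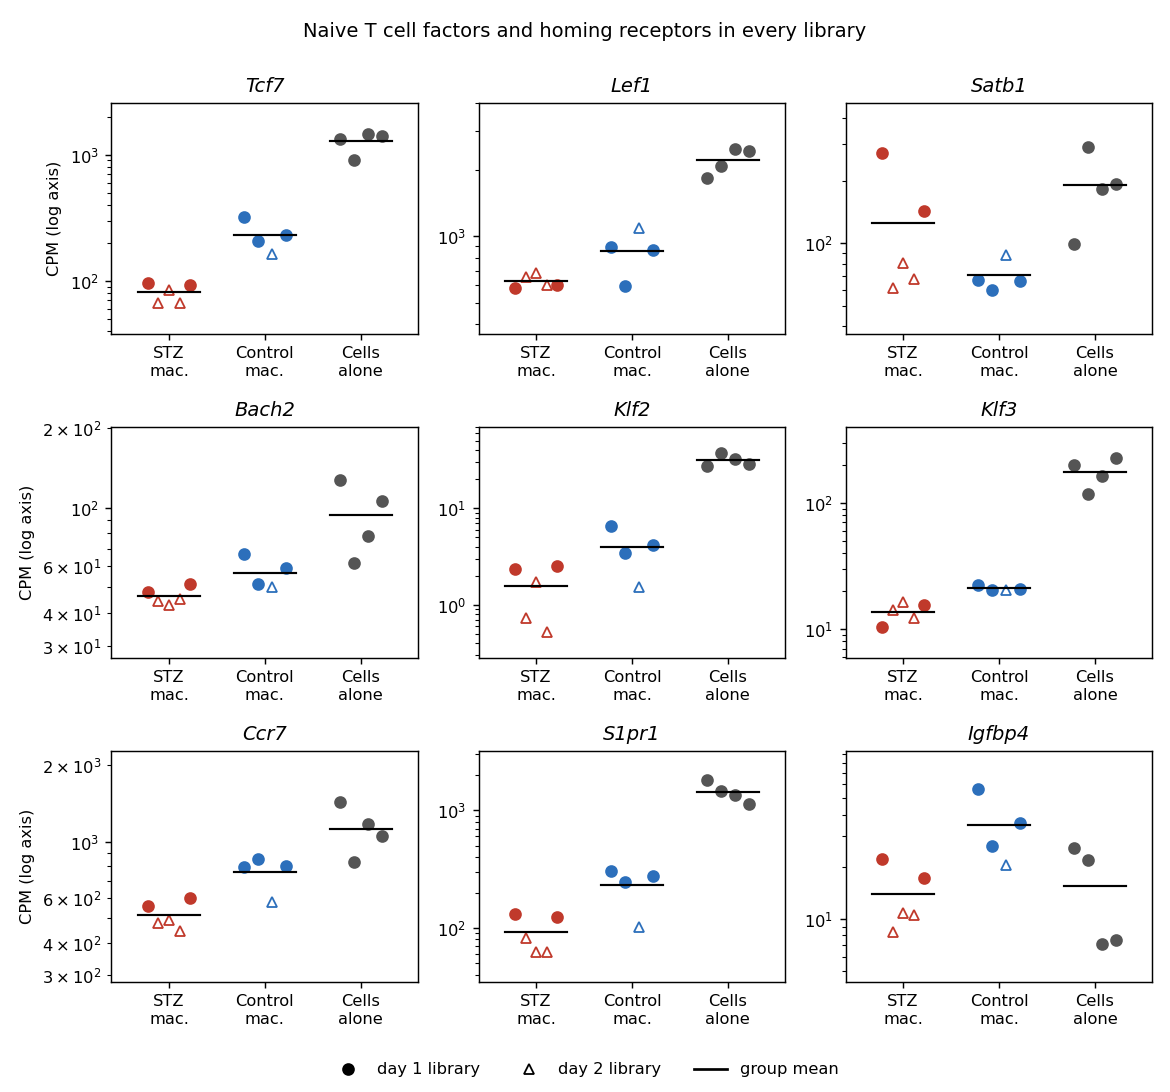
CPM of each gene in every library (log axis), with circles for day 1, open triangles for day 2 and a line at the group mean; the groups are co-culture with STZ macrophages, co-culture with control macrophages and cells alone. Tcf7 and Klf3 show 3 separate levels, with STZ-macrophage libraries lowest, while Satb1 and Igfbp4 do not follow that order.

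Tcf7, which encodes TCF1 (chromosome 11, 52252371 to 52283014, minus strand, GRCm38), was the only one of the 9 called between the co-cultures, lower with STZ macrophages. It was at 97.0, 66.7, 84.5, 66.7 and 92.7 CPM in STZ-macrophage replicates 1 to 5, at 320, 208, 163 and 232 CPM in control-macrophage replicates 1 to 4, and at 1328, 901, 1470 and 1410 CPM in the cells alone. The 3 groups did not overlap. Tcf7 averaged 81.5 ± 14.2 CPM with STZ macrophages (SD, n = 5) and 231 ± 66.1 CPM with control macrophages (n = 4), 2.50-fold lower (log2 fold change -1.32, SE 0.20, edgeR adjusted p = 0.0199). Groups that do not overlap, with STZ macrophages lower, were found for 5.1% of all genes tested, and among the 9 genes for Tcf7 and Klf3. Against the cells alone, at 1277 ± 257 CPM, Tcf7 fell by 3.69 on the log2 scale with STZ macrophages (SE 0.24, edgeR adjusted p = 2.9e-07) and by 2.37 with control macrophages (SE 0.21, adjusted p = 2.5e-06). The log2 fold change between the co-cultures was -1.42 within day 1 (edgeR adjusted p = 0.0561) and -1.16 within day 2 (adjusted p = 0.154), and the difference between the days was 0.25 (SE 0.41, adjusted p = 0.999999). Leaving out 1 library at a time kept the log2 fold change between -1.38 and -1.14, but the call was lost without STZ-macrophage replicate 1, 2, 4 or 5, any one of the 4 control-macrophage libraries, or cells-alone replicate 3, with edgeR adjusted p of 0.0505 to 0.157 in these 9 fits. Without STZ-macrophage replicates 2 and 4 together, those with endocrine transcripts, it was -1.11 (adjusted p = 0.348). The call was also lost in the second deposited table (-1.17, limma adjusted p = 0.119) and with a term for the axis that separates the cells alone (-0.99, edgeR adjusted p = 0.973).

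All 12 T cell markers had a negative log2 fold change between the co-cultures, with a median of -0.59 and none called by edgeR or DESeq2 (10 at an unadjusted edgeR p below 0.05). Tcf7 was also expressed as a percentage of the summed T cell markers. It was 0.479% to 0.943% of that sum with STZ macrophages and 0.690% to 2.05% with control macrophages, and control-macrophage replicate 3 fell inside the range of the STZ-macrophage libraries. Within day 1 this share was 0.817% to 0.943% with STZ macrophages and 1.34% to 2.05% with control macrophages, and within day 2 it was 0.479% to 0.584% with STZ macrophages and 0.690% in the control-macrophage library. In the cells alone it was 8.13% to 10.03%. On this scale, chosen after seeing the data, the co-cultures overlapped for 8 of the 9 genes. The share of all genes that overlap on it was not computed, so this count is no result about the 9 genes. Klf3 was 0.0956% to 0.137% with STZ macrophages and 0.0867% to 0.144% with control macrophages, and Lef1 was 4.69% to 5.68% with STZ macrophages and 4.18% to 5.75% with control macrophages. Satb1 did not overlap, at 0.4395% to 2.65% with STZ macrophages and 0.3745% to 0.429% with control macrophages.

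Lef1, the partner of TCF1 (chromosome 3, 131110471 to 131224356, plus strand), was lower in both co-cultures than in the cells alone. It was at 583, 655, 679, 605 and 601 CPM with STZ macrophages, at 897, 593, 1087 and 866 CPM with control macrophages, and at 1840, 2071, 2493 and 2428 CPM in the cells alone. Every co-culture library was below every library of cells alone, and the co-cultures overlapped through control-macrophage replicate 2. Lef1 fell by 1.98 on the log2 scale with STZ macrophages (SE 0.20, edgeR adjusted p = 7.0e-06) and by 1.44 with control macrophages (SE 0.18, adjusted p = 4.4e-05). Between the co-cultures the log2 fold change was -0.54 (SE 0.17, edgeR adjusted p = 0.149), which did not pass. Of the exonic bases of Lef1, 13.7% lie under the antisense gene Gm43352, and the unstranded libraries cannot separate the reads of the pair.

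The cofactors of TCF1 and LEF1, Wnt pathway genes and genes linked to TCF1 were examined as a list of 21, of which 18 were tested. With STZ macrophages against control macrophages 2 were lower and none higher, and 12 of the 18 had a positive log2 fold change. Those 2 were Slamf6, a surface receptor found on TCF1-positive T cells (70.8 ± 9.05 CPM with STZ macrophages and 209 ± 33.3 CPM with control macrophages, log2 fold change -1.65, adjusted p = 0.0199 by edgeR), and Il6ra, the interleukin 6 receptor (1.17 ± 0.344 CPM with STZ macrophages and 4.94 ± 1.93 CPM with control macrophages, -1.78, adjusted p = 0.04998). Both calls were lost when STZ-macrophage replicate 1 or 5 or control-macrophage replicate 4 was left out, since no gene was called then. The corepressor genes Tle4 (-0.47, adjusted p = 0.217) and Tle5 (0.66, adjusted p = 0.219) did not pass. In comparison with the cells alone, 10 of the 18 were lower and 1 higher with STZ macrophages, and 13 were lower and 1 higher with control macrophages, among them Bcl9l, a coactivator of beta-catenin (-2.96 and -3.22), and Il6ra (-5.67 and -3.90).

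Satb1, an organiser of chromatin in T cells (chromosome 17, 51736187 to 51833290, minus strand), did not follow the others. With STZ macrophages it was at 273 and 143 CPM on day 1 (replicates 1 and 5), and at 61.2, 80.3 and 67.4 CPM on day 2 (replicates 2 to 4). In control-macrophage replicates 1 to 4 it was at 67.0, 59.8, 88.4 and 66.2 CPM, and in the cells alone at 99.9, 291, 182 and 192 CPM. Only the 2 STZ-macrophage libraries of day 1 were above the control-macrophage libraries. These 2 were also the only co-cultures with positive scores (28.9 and 20.96) on the axis that separates the cells alone. Cells-alone replicates 1 and 2 also had positive scores, but had the lowest and the highest Satb1 of their group. Over all genes tested, STZ-macrophage replicate 1 and cells-alone replicate 2 correlated in their deviations from the group means (r = 0.529). No other pair of an STZ-macrophage and a cells-alone library had a higher r. A link was not tested. The log2 fold change between the co-cultures was 0.85 over both days (SE 0.39, edgeR adjusted p = 0.219), 1.69 within day 1 (SE 0.37, adjusted p = 0.0957) and -0.34 within day 2 (SE 0.47, adjusted p = 0.806). The difference between the days was -2.03 (SE 0.59, edgeR adjusted p = 0.286; DESeq2 adjusted p = 0.0603), so neither the effect nor its difference passed. DESeq2 called the day 1 effect (1.81, adjusted p = 0.00152), as it did in the higher direction for 5.25% of all genes. Satb1 fell by 1.17 on the log2 scale with control macrophages against the cells alone (SE 0.44, edgeR adjusted p = 0.0467). That call was lost with the replicate number as a block (adjusted p = 0.137), with RLE scaling (0.0575), without the filter (0.0748) and when 1 of 8 libraries was left out, STZ-macrophage replicate 3 or 5, control-macrophage replicate 1, 2 or 4, or cells-alone replicate 2, 3 or 4 (adjusted p 0.0571 to 0.152). Within day 1 it was -1.57 (adjusted p = 0.00264). With STZ macrophages against the cells alone it was -0.33 (SE 0.42, edgeR adjusted p = 0.556) and changed sign when the 2 groups were fitted alone (0.20). Antisense and same-strand neighbours cover 0.673% and 0.82% of its exonic bases.

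Of 9 SATB family members and known partners of SATB1, 8 were tested, and none was called between the co-cultures by edgeR (3 at an unadjusted p below 0.05), while DESeq2 called 2, among them Foxp3 as lower. Foxp3, the regulatory T cell factor, had 5.29 to 20.2 CPM with STZ macrophages, 14.9 to 107 CPM with control macrophages and 0.502 to 1.98 CPM in the cells alone. Its log2 fold change between the co-cultures was -2.51 (adjusted p = 0.160), and control-macrophage replicate 3 lay within the range of the STZ-macrophage libraries. Hdac1, a histone deacetylase (-0.59, adjusted p = 0.163), and Zbtb7b, the CD4 lineage factor (1.18, adjusted p = 0.244), did not pass either. Against the cells alone, 3 were higher and 1 lower with STZ macrophages, and likewise 3 and 1 with control macrophages. Foxp3 was higher (2.75 and 5.26) and Runx1, a factor of T cell development, lower (-2.76 and -2.20) in both co-cultures.

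Bach2, a repressor that restrains effector differentiation (chromosome 4, 32238804 to 32586108, plus strand), had the smallest difference between the co-cultures among the 9 genes. It was at 48.1, 44.4, 42.9, 45.3 and 51.3 CPM with STZ macrophages, at 66.8, 51.6, 49.9 and 59.0 CPM with control macrophages, and at 127, 61.8, 78.2 and 106 CPM in the cells alone. The co-cultures overlapped, and the STZ-macrophage libraries were all below the cells alone. The log2 fold change was -0.22 with STZ macrophages against control macrophages (SE 0.22, edgeR adjusted p = 0.530). Bach2 fell by 0.89 with STZ macrophages against the cells alone (SE 0.25, adjusted p = 0.0105) and by 0.67 with control macrophages (SE 0.22, adjusted p = 0.0260). The call with STZ macrophages was lost without control-macrophage replicate 3 or 4 (adjusted p = 0.0710 and 0.0749), without the filter (0.136) and with only the 2 groups (0.0634). The call with control macrophages was lost without control-macrophage replicate 2, 3 or 4 or cells-alone replicate 1 or 4 (adjusted p 0.0603 to 0.0994), without the filter (0.110) and with only the 2 groups (0.114). The antisense gene Bach2os covers 5.4% of its exonic bases.

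Genes of the BACH family and genes that BACH2 is known to restrain formed a list of 16, of which 13 were tested. None was called between the co-cultures by edgeR (2 at an unadjusted p below 0.05; DESeq2 called Gata3 as higher), and 8 of 13 had a positive log2 fold change. The nearest were Gata3, the T helper 2 factor (1.38, adjusted p = 0.156), the BACH2 partner Mafk (1.66, adjusted p = 0.194), the cytokine gene Ifng (1.15, adjusted p = 0.230) and Prdm1, which encodes the effector factor BLIMP1 (0.57, adjusted p = 0.265). Relative to the cells alone, 7 were higher and 3 lower with STZ macrophages, and 6 were higher and 3 lower with control macrophages. Prdm1 was among the 3 lower genes with both kinds of macrophage. Il2ra, the high-affinity interleukin 2 receptor of activated T cells, had no count in any of the 4 cells-alone libraries. Taking a floor of 3 counts over that group, it was at least 90590-fold higher with STZ macrophages and at least 84752-fold higher with control macrophages. Gzmb, the protease granzyme B, was at 3326 ± 734 CPM with STZ macrophages, 2196 ± 2089 CPM with control macrophages and 0.185 ± 0.350 CPM in the cells alone.

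Both Krüppel-like factors were far lower in co-culture than in the cells alone. Klf2 (chromosome 8, 72319033 to 72321656, plus strand) was at 2.33, 0.723, 1.74, 0.524 and 2.52 CPM with STZ macrophages, at 6.58, 3.48, 1.54 and 4.15 CPM with control macrophages, and at 27.8, 37.9, 32.9 and 28.7 CPM in the cells alone. Every co-culture library was far below the cells alone, and control-macrophage replicate 3 lay among the STZ-macrophage libraries. Klf2 was 12.5-fold lower with STZ macrophages (-3.64 on the log2 scale, SE 0.45, adjusted p = 4.0e-05 by edgeR) and 6.95-fold lower with control macrophages (-2.80, SE 0.39, adjusted p = 0.000102) than in the cells alone. Between the co-cultures the log2 fold change was -0.84 (SE 0.37, adjusted p = 0.209). The depth behind its lowest value, in STZ-macrophage replicate 4, was 17 counts.

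Klf3, a repressor of the same family (chromosome 5, 64803388 to 64832901, plus strand), was at 10.4, 14.2, 16.4, 12.3 and 15.5 CPM with STZ macrophages, at 22.2, 20.4, 20.4 and 20.7 CPM with control macrophages, and at 198, 117, 163 and 228 CPM in the cells alone. The groups did not overlap in CPM, though the co-cultures did as a share of the T cell markers. The 4 control-macrophage libraries, 3 of day 1 and 1 of day 2, were close to each other. Klf3 was 13.2-fold lower with STZ macrophages (-3.73 on the log2 scale, SE 0.27, adjusted p = 7.5e-07 by edgeR) and 8.54-fold lower with control macrophages (-3.09, SE 0.24, adjusted p = 1.2e-06) than in the cells alone. Between the co-cultures it was 13.8 ± 2.45 CPM with STZ macrophages (SD, n = 5) and 20.9 ± 0.837 CPM with control macrophages (n = 4), a log2 fold change of -0.63 (SE 0.23, edgeR adjusted p = 0.166) that did not pass. The antisense gene Gm20033 covers 3.59% of its exonic bases.

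Of the 17 Krüppel-like factor genes, Klf2 and Klf3 included, 11 were tested. None was called between the co-cultures by edgeR or DESeq2 (3 at an unadjusted edgeR p below 0.05), and Klf13 (-0.74, adjusted p = 0.158) had the smallest p, while Klf11 was at 1.05 (adjusted p = 0.375). Relative to the cells alone, 6 were lower and none higher with STZ macrophages, and 6 were lower and 2 higher with control macrophages. Klf6 was at 193 ± 22.1 CPM with STZ macrophages, 186 ± 20.3 CPM with control macrophages and 488 ± 38.3 CPM in the cells alone (log2 fold changes -1.38 and -1.41, both called).

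**Figure D2:**
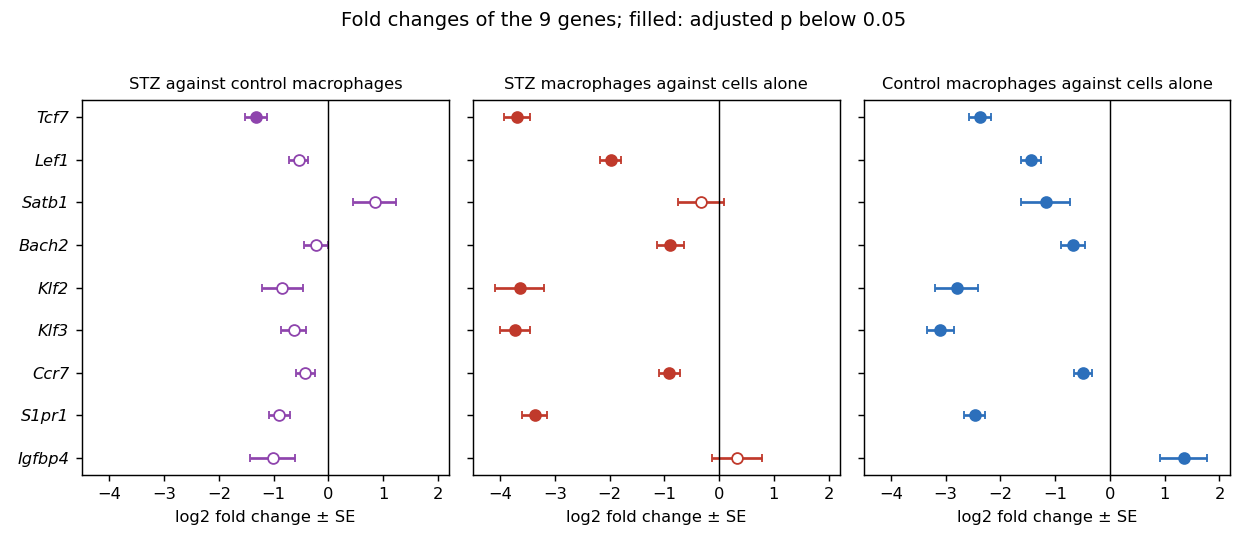
Log2 fold change of each gene with its standard error in the 3 comparisons, filled where the edgeR adjusted p was below 0.05. Between the co-cultures Tcf7 alone is filled, at -1.32, while against the cells alone Klf3 is lowest, at -3.73 with STZ macrophages and -3.09 with control macrophages.

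S1pr1, the egress receptor (chromosome 3, 115710433 to 115715072, minus strand), was at 130, 82.9, 63.0, 61.9 and 125 CPM with STZ macrophages, at 303, 245, 102 and 274 CPM with control macrophages, and at 1807, 1466, 1348 and 1132 CPM in the cells alone. Within day 1 the 2 STZ-macrophage libraries were below the 3 control-macrophage libraries, and within day 2 all 3 were below the 1 control-macrophage library. Across days they overlapped through control-macrophage replicate 3. S1pr1 was 10.3-fold lower with STZ macrophages (-3.37 on the log2 scale, SE 0.23, adjusted p = 4.3e-07 by edgeR) and 5.55-fold lower with control macrophages (-2.47, SE 0.20, adjusted p = 1.4e-06) than in the cells alone. Between the co-cultures the log2 fold change was -0.90 (SE 0.19, edgeR adjusted p = 0.0713), which did not pass, while DESeq2 called it (-0.79, adjusted p = 0.00597), with 1.39% of all genes called lower. Within day 1 it was -1.10 (edgeR adjusted p = 0.0836) and within day 2 -0.55 (adjusted p = 0.398).

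Ccr7, the lymph node homing receptor (chromosome 11, 99144196 to 99155077, minus strand), had smaller log2 fold changes than S1pr1 in each comparison. It was at 561, 477, 493, 447 and 599 CPM with STZ macrophages, at 798, 854, 578 and 805 CPM with control macrophages, and at 1435, 836, 1177 and 1052 CPM in the cells alone. The STZ-macrophage libraries were all below the cells alone, while control-macrophage replicate 2 was above the lowest of them. Ccr7 was 1.88-fold lower with STZ macrophages (-0.91 on the log2 scale, SE 0.19, adjusted p = 0.00191 by edgeR) and 1.40-fold lower with control macrophages (-0.49, SE 0.17, adjusted p = 0.0312) than in the cells alone. The call with STZ macrophages was lost without the filter (-0.63, adjusted p = 0.0516) and, just above the threshold, with the replicate number as a block. That with control macrophages was lost with the replicate number as a block (adjusted p = 0.0873), with RLE scaling (0.0595), without the filter (0.169), with only the 2 groups (0.151), within day 1 (-0.46, adjusted p = 0.0567), and when control-macrophage replicate 1, 2, 3 or 4 or cells-alone replicate 1 or 3 was left out (adjusted p 0.0578 to 0.143). Between the co-cultures the log2 fold change was -0.42 (SE 0.17, edgeR adjusted p = 0.185).

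Partners in egress and lymph node homing were a list of 21, with 17 tested. None was called between the co-cultures by edgeR (2 at an unadjusted p below 0.05), while DESeq2 called 2 as lower, among them Rgs2. Rgs2, a regulator of G protein signalling (-1.26, adjusted p = 0.125), the chemokine receptor gene Cxcr4 (-0.62, adjusted p = 0.240) and the receptor kinase gene Grk2 (0.85, adjusted p = 0.259) did not pass. In the comparison with the cells alone, 6 were lower and 4 higher with STZ macrophages, and likewise 6 and 4 with control macrophages. The integrin gene Itga4 (-2.21 and -2.26) and Rgs2 (-4.00 and -2.74) were lower in both.

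Igfbp4, which encodes a secreted binder of insulin-like growth factors (chromosome 11, 99041244 to 99054392, plus strand), had its highest values with control macrophages. It was at 22.1, 8.32, 10.8, 10.6 and 17.2 CPM with STZ macrophages, at 56.3, 26.4, 20.4 and 35.6 CPM with control macrophages, and at 25.6, 21.9, 7.18 and 7.48 CPM in the cells alone. The cells alone fell into a higher pair, replicates 1 and 2, and a lower pair, replicates 3 and 4, and all 3 groups overlapped. Igfbp4 rose by 1.35 on the log2 scale with control macrophages against the cells alone (SE 0.43, edgeR adjusted p = 0.0221), but the call was lost without control-macrophage replicate 1 (1.10, adjusted p = 0.0865), with library totals as the scaling (1.00, adjusted p = 0.0856), without the batch term (adjusted p = 0.0686), with only the 2 groups (0.0898) and with block and GC correction (0.0532). In the second deposited table the direction turned (-0.46, limma adjusted p = 0.278). Its log2 fold change was 0.33 with STZ macrophages against the cells alone (SE 0.46, adjusted p = 0.593) and -1.02 between the co-cultures (SE 0.42, adjusted p = 0.190). In the second deposited table, Igfbp4 was called lower with STZ macrophages than in the cells alone (-1.31, limma adjusted p = 0.0136). The same 4 cells-alone libraries separate on their own first principal component, with scores of 42.9, 55.4, -37.1 and -61.2, on which STZ-macrophage replicates scored 28.9, -25.1, -49.1, -31.2 and 20.96 and control-macrophage replicates -23.5, -3.21, -97.1 and -51.5. With this axis as a term, fitted over the co-cultures alone, the log2 fold change of Igfbp4 between them was -0.55 (edgeR adjusted p = 0.997). No such fit was made against the cells alone.

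Of 11 insulin-like growth factor and binding protein genes beside Igfbp4, 4 were tested, and none was called between the co-cultures by edgeR or DESeq2 (2 at an unadjusted edgeR p below 0.05). The receptor Igf2r was at -0.49 (adjusted p = 0.170), the growth factor Igf1 at 2.49 (adjusted p = 0.207), the binding protein Igfbp6 at -0.51 (adjusted p = 0.598) and the receptor Igf1r at -0.01 (adjusted p = 0.990). Against the cells alone, 2 were higher and 2 lower with STZ macrophages, and 1 was higher and 1 lower with control macrophages. Igf1r was at 1.12 ± 0.271 CPM with STZ macrophages, 1.06 ± 0.423 CPM with control macrophages and 111 ± 35.9 CPM in the cells alone (-6.84 and -6.83). Igfbp6 had no count in the cells alone and was at least 29.7-fold higher with STZ macrophages and at least 38.9-fold higher with control macrophages.

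**Figure D3:**
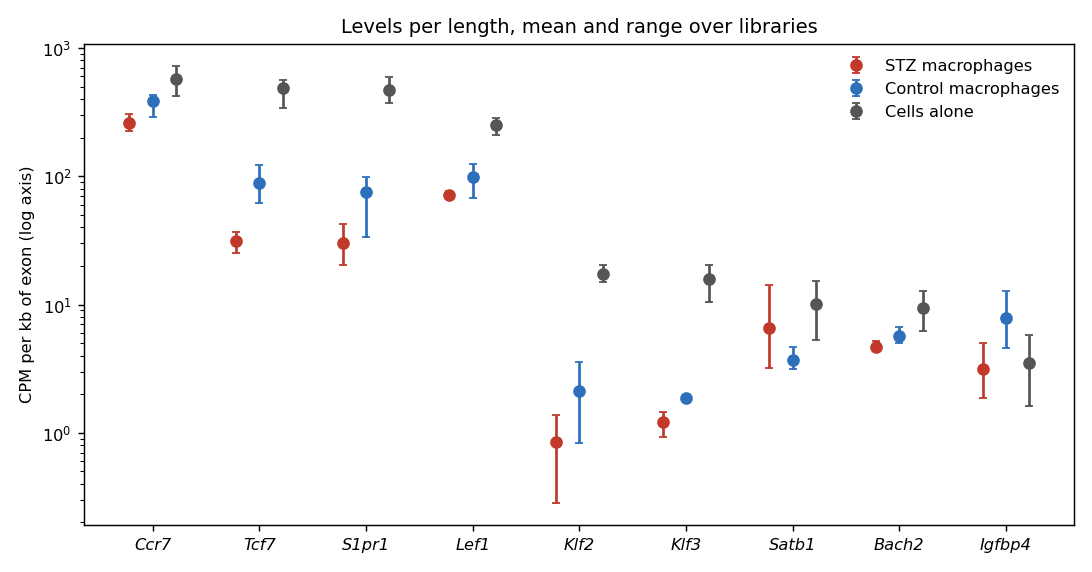
Mean and range of CPM per kilobase of exon (log axis) for each gene in the STZ-macrophage co-culture, the control-macrophage co-culture and the cells alone. Ccr7 is highest in every group, Klf2 and Klf3 are lowest in both co-cultures, and Igfbp4 is lowest in the cells alone.

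Levels can be ranked between genes only per length, as CPM per kilobase of exon. The length was that of all annotated exons of a gene merged, from 1.847 kb (Klf2) to 19.027 kb (Satb1). Where the cells express a shorter transcript form this understates the level, so the order depends on the annotation. With STZ macrophages the order was Ccr7 (261 ± 31.7), Lef1 (71.1 ± 4.59), Tcf7 (31.1 ± 5.42), S1pr1 (30.4 ± 10.9), Satb1 (6.56 ± 4.66), Bach2 (4.67 ± 0.335), Igfbp4 (3.13 ± 1.29), Klf3 (1.22 ± 0.218) and Klf2 (0.848 ± 0.4931). Neighbours whose ranges overlapped were Tcf7 and S1pr1, Satb1 and Bach2, Bach2 and Igfbp4, and Klf3 and Klf2. With control macrophages Lef1 (97.95 ± 23.2), Tcf7 (87.9 ± 25.2) and S1pr1 (75.8 ± 29.3) overlapped below Ccr7 (384 ± 62.2), and Igfbp4 (7.85 ± 3.56), Bach2 (5.72 ± 0.777), Satb1 (3.70 ± 0.654), Klf2 (2.13 ± 1.13) and Klf3 (1.86 ± 0.0744) followed, where only Bach2 and Satb1 were apart. In the cells alone Ccr7 (569 ± 127), Tcf7 (487 ± 98.1) and S1pr1 (472 ± 92.6) overlapped, Lef1 (251 ± 35.0) was apart, and Klf2 (17.2 ± 2.49), Klf3 (15.7 ± 4.26), Satb1 (10.1 ± 4.12) and Bach2 (9.39 ± 2.93) overlapped in turn above Igfbp4 (3.52 ± 2.18). Tcf7 per kilobase thus stood beside Ccr7 in the cells alone and below Lef1 in all 5 STZ-macrophage libraries.

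Over the 9 co-culture libraries, most of the genes ran in parallel. The Pearson r of each gene's log2 CPM over these 9 libraries with the mean of the other 8 (each as a z score) was 0.96 for Igfbp4, 0.96 for Tcf7, 0.91 for Bach2, 0.90 for Klf2, 0.90 for S1pr1, 0.89 for Ccr7, 0.66 for Klf3, 0.45 for Lef1 and -0.22 for Satb1. These values describe libraries that share group and batch. The mean z score of the 9 genes was -0.13 and -0.06 in STZ-macrophage replicates 1 and 5, -0.89, -0.60 and -1.03 in replicates 2 to 4, and 1.21, 0.43, 0.24 and 0.84 in control-macrophage replicates 1 to 4, so each STZ-macrophage library was below each control-macrophage library and the day 2 libraries were the lowest of each group. Among other genes, the patterns most like this mean were those of Emp1, a membrane protein gene (r = 0.995), Tcp11l2 (0.990), Samhd1, a nucleotide-degrading enzyme (0.978), Ripor2 (0.977), and Slpi, a protease inhibitor (0.972). The most opposite were Aldh7a1, an aldehyde dehydrogenase (-0.978), Serpinb9b (-0.971) and the phosphatase Ptprk (-0.962). Of these 8 genes, Ripor2 was called between the co-cultures (82.6 ± 29.6 CPM with STZ macrophages and 237 ± 61.2 CPM with control macrophages, log2 fold change -1.27, edgeR adjusted p = 0.0199). That call was lost when STZ-macrophage replicate 1 or 5 or control-macrophage replicate 4 was left out. Against the cells alone, Emp1 (1.38 with STZ macrophages and 2.26 with control macrophages) and Samhd1 (2.17 and 2.83) were called higher. Tcp11l2 (-4.66 and -3.41) and Ripor2 (-2.84 and -1.57) were called lower, and Slpi (-0.37 and 0.82) was not called. The likeness was computed over the co-cultures alone.

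**Figure D4:**
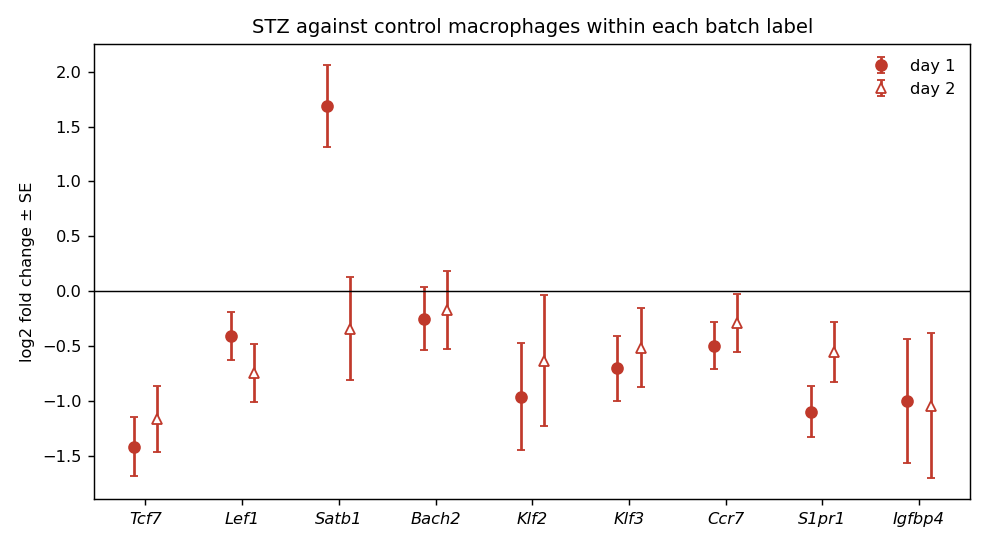
Log2 fold change, with its standard error, of co-culture with STZ macrophages over that with control macrophages, separately for day 1 and day 2. Tcf7 is at -1.42 and -1.16, and Satb1 at 1.69 on day 1 and -0.34 on day 2.

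Within the batches, the median log2 fold change of all genes tested between the co-cultures was -0.19 on day 1 and -0.16 on day 2. Of the 9 genes, 8 had a negative value on day 1 and 9 of 9 on day 2, with Bach2 near that median (-0.25 and -0.18). None was called by edgeR on either day, against 0.215% of all genes on day 1 (0.171% higher, 0.0444% lower) and 0% on day 2 (2212 genes at an unadjusted p below 0.05), while DESeq2 called Tcf7 and S1pr1 as lower and Satb1 as higher on day 1 (0.691% of all genes called lower and 5.25% higher). Day 2 rests on 1 control-macrophage library. For none of the 9 genes was the difference between the days called (edgeR, 0.00634% of all genes called). At an unadjusted p below 0.05 it was found for 1 of the 9, Satb1, and for 9.82% of all genes, a like share. Within day 1 alone, 7 of the 9 genes were lower with STZ macrophages than in the cells alone (38.8% of all genes called, 19.3% lower and 19.5% higher), and with control macrophages 7 were lower and Igfbp4 was higher (44.9% called, 21.8% lower and 23.1% higher).

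Other genes of naive and quiescent T cells were also mostly lower in co-culture. The list of them, like the other lists, was chosen with earlier results of these data known and is no independent check. Of 24 such genes, all tested, 4 were lower with STZ macrophages than with control macrophages and none was higher, and their median log2 fold change was -0.63. The 4 were Tspan32, a tetraspanin (48.8 ± 5.83 CPM with STZ macrophages and 195 ± 39.9 CPM with control macrophages, -1.86, edgeR adjusted p = 0.00933), Dapl1 (-2.29, adjusted p = 0.0199), Ripor2 and the neuronal vesicle gene Nsg2 (-1.19, adjusted p = 0.0495). These 4 calls were lost when STZ-macrophage replicate 1 or 5 or control-macrophage replicate 4 was left out, since no gene was called then. Against the cells alone, 20 of the 24 were lower and 1 higher with STZ macrophages, and 18 were lower and 3 higher with control macrophages. Il7r, the interleukin 7 receptor that keeps naive cells alive, was at 228 ± 17.1 CPM with STZ macrophages, 231 ± 64.9 CPM with control macrophages and 2929 ± 1039 CPM in the cells alone. Foxp1, a factor of naive T cell quiescence, was lower in both co-cultures (-1.89 and -1.74).

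Effector and activation genes were mostly higher in co-culture than in the cells alone. Of 16, all tested, 15 were higher and 1 lower with STZ macrophages, and 12 were higher and 1 lower with control macrophages. The 1 lower gene was Prdm1 in both (-1.52 and -2.09). Cd44, the adhesion receptor of activated T cells, was at 157 ± 45.9 CPM with STZ macrophages, 199 ± 89.8 CPM with control macrophages and 26.0 ± 4.41 CPM in the cells alone. Between the co-cultures none was called by edgeR (2 at an unadjusted p below 0.05; DESeq2 called Myc as higher), and the smallest p belonged to Cd44 (-0.64, adjusted p = 0.115), Myc (2.64, adjusted p = 0.144), the transferrin receptor gene Tfrc (-0.73, adjusted p = 0.249) and Prdm1.

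**Figure D5:**
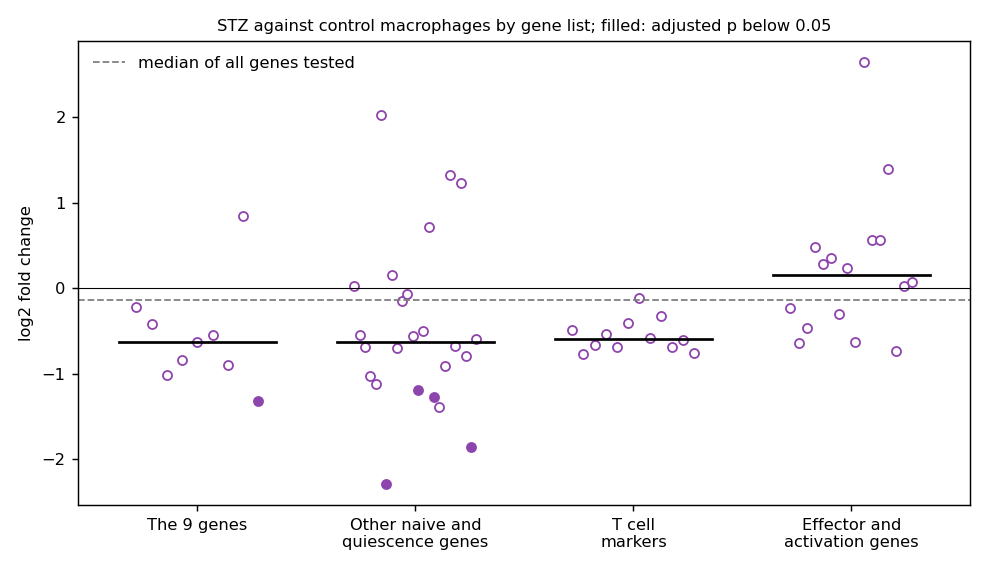
Log2 fold change of co-culture with STZ macrophages over that with control macrophages for the 9 genes, other naive and quiescence genes, T cell markers and effector genes, filled where the adjusted p was below 0.05, with a line at each median. The medians are -0.63, -0.63, -0.59 and 0.16, and the dashed line is the median of all genes tested, -0.13.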

How the data were processed

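Per the labels' protocols, T cells were sorted by CD45, Thy1.2 and CD4, libraries were made unstranded from 10 ng of RNA (integrity score above 8.0), and paired reads of 150 bases, with a target of about 30 M per library, were aligned to GRCm38. The submitters' processing notes list DESeq2, with no role given, and no counting program. The first table holds estimated counts that the authors deposited without normalization; they are in part not whole and were rounded for tests. In the second, 12236 genes have log2 values, deposited after an adjustment that no label describes. It was used for 1 alternative, with limma 3.58.1.

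The 13 libraries were fitted together in edgeR 4.0.16 (R 4.3.3), with filterByExpr by group, TMM scaling, a term per group and one for the batch (day), and robust quasi-likelihood F tests. Benjamini-Hochberg adjustment ran over the 15781 genes tested. Each standard error was taken as the absolute log2 fold change divided by √F. The batch term rests on the co-cultures. Within-day effects come from a fit of separate means for every group on each day, where the single control-macrophage library of day 2 is assumed to vary like the others. Log2 CPM used a prior count of 2. A floor of 3 counts was used for genes with no count in a group; without molecular identifiers it covers counting error only. The fit was tested on simulated counts. Alternatives included DESeq2 1.42.0, other scalings, no filter, no batch term, only 2 groups, a replicate block, GC correction and leaving out libraries.

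Same-numbered libraries of control-macrophage co-culture and cells alone correlated in their deviations from the group means (r = 0.161 to 0.352 in 4 of 4 pairs). Libraries of different numbers reached r = 0.433, and 2 of 4 control-macrophage libraries correlated best with their own number. The labels state no pairing, pair 3 joins different days, and the fit reported used no pairing. Blocked values stand beside the comparison of control macrophages with the cells alone where they end a call. The genes named were the 9, up to 4 genes per list with the smallest p between the co-cultures and up to 2 against the cells alone, and the 5 most and 3 least alike patterns; 2 genes that this rule names are not reported here. The members and lists were chosen with earlier results of these data known. Gene positions are those of GENCODE vM21 on GRCm38.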

Additional observations from a re-analysis of the deposited data

Results flagged for a closer look

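Satb1 was picked out because its STZ-macrophage against control-macrophage effect went in opposite directions on the 2 days. The log2 fold change was 1.69 on day 1 (SE 0.37) and -0.34 on day 2 (SE 0.47). The difference of -2.03 (SE 0.59) had an unadjusted p of 0.00480 in the edgeR quasi-likelihood model and an adjusted p of 0.286 over 15781 genes, so it did not pass; 9.82% of all genes had an unadjusted p below 0.05 in this test. Both STZ-macrophage libraries of day 1 (273 and 143 CPM) were above the 3 control-macrophage libraries of that day (59.8 to 67.0 CPM), and all 3 STZ-macrophage libraries of day 2 (61.2 to 80.3 CPM) were below the 1 control-macrophage library of that day (88.4 CPM). Among 27 sets of values, 9 genes in 3 groups, no library stood apart from its group by Dixon's test. With 4 or 5 libraries per group the test flags only a lone extreme value. It therefore does not show that no library was unusual.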

How the results depend on the processing

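Of 216 log2 fold changes of single genes recomputed for STZ macrophages against the cells alone, 200 kept direction and side of the threshold, 7 lost the call and 9 reversed. Between the co-cultures it was 206, 14 and 3 of 225, with 2 that gained a call (S1pr1), and for control macrophages against the cells alone 180, 35 and 1 of 216. The cause was not tested.

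Between the co-cultures, the number of the 9 genes called lower was 1. It was 0 with a term for the cells-alone axis, with a replicate block, with block and GC correction, with the second table and without STZ-macrophage replicates 2 and 4 together, 2 with DESeq2 and with only the 2 groups, and 0 to 1 when 1 library was left out. Genes called there numbered 51, and 0 with the axis, 650 with DESeq2, 31 with GC correction, 19 without the batch term, 2698 with only the 2 groups, 0 with a replicate block, alone or with GC correction, 112 in the second table, 0 without replicates 2 and 4 together (chosen after seeing the data), and 0 to 582 leaving out 1 library. At an unadjusted p below 0.05, 3604 genes passed in the fit reported, 705 with the axis, 1368 with the block and 1820 without replicates 2 and 4. For STZ macrophages against the cells alone, 6807 genes became 3476 with a replicate block and 3859 with block and GC correction. For control macrophages against the cells alone, the 8 lower genes of the 9 became 5 without the filter and 5 to 8 leaving out 1 library. The 1 higher gene became 0 with library totals, without the batch term, with only the 2 groups, with block and GC correction and in the second table, and 0 to 1 leaving out 1 library. The day difference was called for 1 gene by edgeR and 404 by DESeq2.

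Reversed values for STZ macrophages against the cells alone were, for Igfbp4, -0.17 without the batch term and -0.078 with the block. Igfbp4 was at -0.27 with GC correction, -0.72 with block and GC correction and -1.31 in the second table. Only the value in the second table was called (limma adjusted p = 0.0136). Satb1 reversed to 0.20 with only the 2 groups and to 0.35 without control-macrophage replicate 3. It was at 0.15 without cells-alone replicate 2 and 0.075 without STZ-macrophage replicates 2 and 4. Leaving out 1 library, Satb1 ran between -0.95 and 0.35. With the axis as a term, Bach2 (0.012), Klf2 (0.12) and Lef1 (0.13) reversed between the co-cultures. Igfbp4 was at -0.46 in the second table for control macrophages against the cells alone.

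The replicate block gave Tcf7 an adjusted p of 0.554 between the co-cultures and Ccr7 one of 0.0504 for STZ macrophages against the cells alone. These numbers pair nothing by the labels, and same-numbered libraries correlated at -0.202 to 0.474. Same-numbered STZ-macrophage and cells-alone libraries correlated at -0.415 to 0.331, and those of different numbers at up to 0.529.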
